A study of Homo sapiens with 3 samples.

Results

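The peaks described here lie around 10 genes for secreted inflammatory proteins, CXCL8, CXCL1, CXCL2, CCL2, IL1A, IL1B, IL6, IL11, LIF and CSF2. They were the p300/CBP peaks whose centre lay within 100 kb of the transcription start site (TSS) of at least 1 of these genes on the human genome build hg19. A peak in overlapping windows was counted once. There were 136 such peaks among 122221 in both lists, 83 of 82901 in siCTL and 53 of 39320 in siFra-1. The cells were MDA-MB-231, an established human triple-negative breast cancer line of the basal b type. They received either a control siRNA (siCTL) or a mix of 3 siRNAs against Fra-1 (siFra-1), each at 4.5 nM in total for 72 h, and were fixed for 7 min. Chromatin was precipitated with an antibody against p300/CBP and sequenced as 1 library per condition, made from immunoprecipitations that had been pooled. An input sample was not analysed here, and the level of Fra-1 itself was not measured in the peak lists.

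Chemokines are small secreted proteins that attract leukocytes, and the interleukins, LIF and CSF2 signal between immune, stromal and tumor cells. Their genes are classical inducible genes, read from promoters and distal enhancers that bind AP-1, NF-kB and C/EBP factors. Fra-1 is the product of FOSL1. It belongs to the Fos proteins, which pair with a Jun protein to bind AP-1 motifs. p300 and CBP are related acetyltransferases that transcription factors bring to enhancers and promoters. A peak was a run of 50 bp bins over a fixed signal threshold, and the lists gave its position and width but no height. Because each condition had 1 library, no test between conditions was possible, no p-value is given, and the intervals (95%) cover counting error only. Depth was unknown, an artifact threshold used in processing differed between the libraries, and neighbouring peaks are not independent of each other.

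The windows held fewer peaks in siFra-1 than in siCTL, but more wide ones. Of the 83 siCTL peaks 59 (71.1%, Wilson interval 60.6 to 79.7%) had the smallest width, 100 bp, against 83.4% of the whole siCTL list. In siFra-1 it was 25 of 53 (47.2%, 34.4 to 60.3%) against 69.9% of the whole list. Without the LIF window the shares were 75.4% (63.3 to 84.5%) and 56.4% (41 to 70.7%), intervals that hold the values of the whole lists. The siFra-1 to siCTL ratio of peak numbers was 0.639 (exact interval 0.444 to 0.912) and over the whole lists 0.474. Peaks of 250 bp and over, called wide here, numbered 11 in siCTL against 20 in siFra-1. Their ratio was 1.82 (0.83 to 4.2), and over the whole lists it was 1.64. The latter interval holds both 1 and the value of the whole lists, and that of all peaks holds the value of the whole lists but not 1. Summed length was 14550 bp in siCTL and 15250 bp in siFra-1, with mean widths of 175 and 288 bp. Over the whole lists it was 9956250 and 6290700 bp, with mean widths of 120 and 160 bp. LIF supplied a large share of this length, and without its window 8200 and 7650 bp remained, with 4 and 10 wide peaks.

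**Figure D1:**
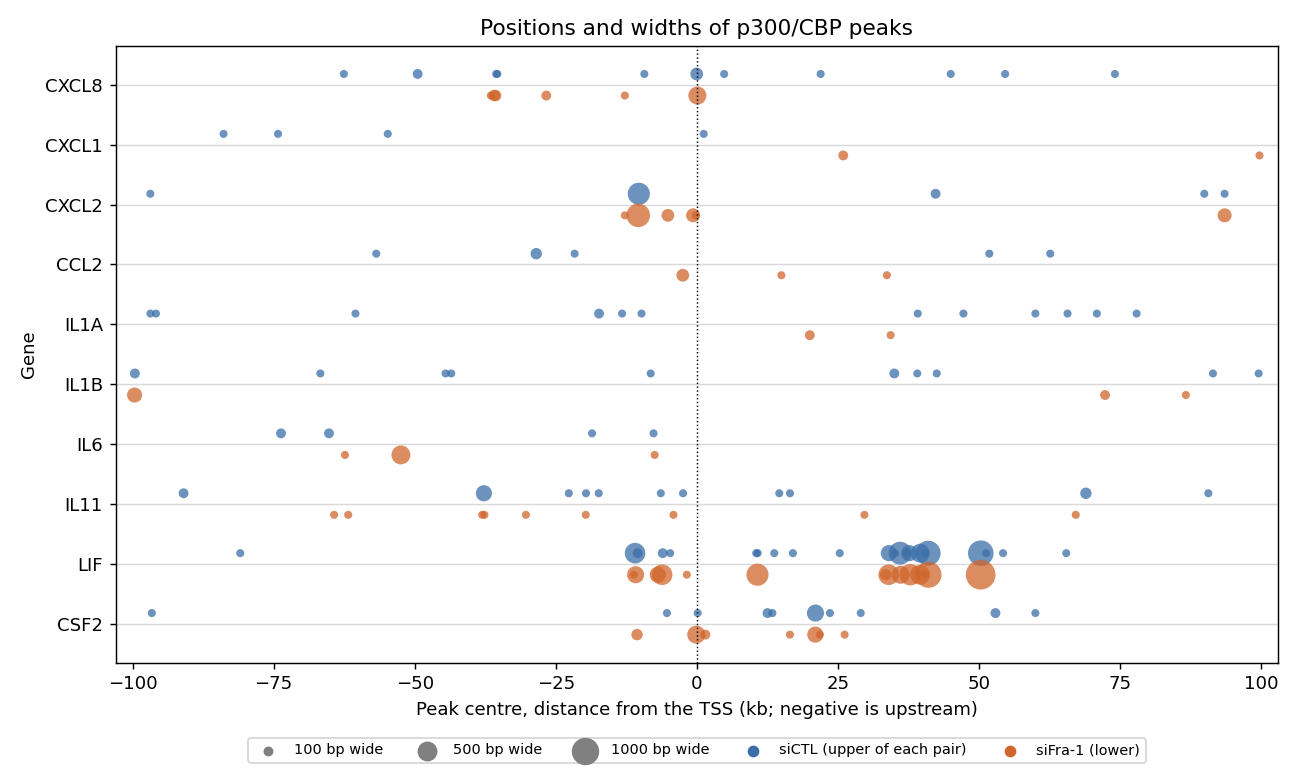
Peaks in the window of each gene, by the distance of the peak centre from the TSS in kb along the gene's strand. Each circle is a peak, with area proportional to width, siCTL above and siFra-1 below the line. The widest circles gather 33 to 52 kb downstream of LIF, in both conditions.

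Counted by gene, the siFra-1 number was at most 0.5 of the siCTL number at 3 of the 10 genes, CXCL1, IL1A and IL1B. This held for 65.5% of the protein-coding genes that had a siCTL peak. None of the 10 had at least 2 times as many peaks in siFra-1, and 2.45% of protein-coding genes did. More wide peaks in siFra-1 than in siCTL were found at 6 of the 10, CXCL2, CCL2, IL1B, IL6, LIF and CSF2, against 15.7% of protein-coding genes. Fewer were found at IL11 alone, against 7.29%. At 4 of the 6 genes with more, the difference was 1 peak. The shares of 15.7% and 7.29% are over all 20136 protein-coding genes, also those without a wide peak. Their means were 0.364 siCTL and 0.513 siFra-1 wide peaks per gene. The members had means of 1.1 and 2, so the shares do not compare genes with like numbers of wide peaks. The median member had 10 siCTL and 4.5 siFra-1 peaks, and the median protein-coding gene 6 and 2.

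**Figure D2:**
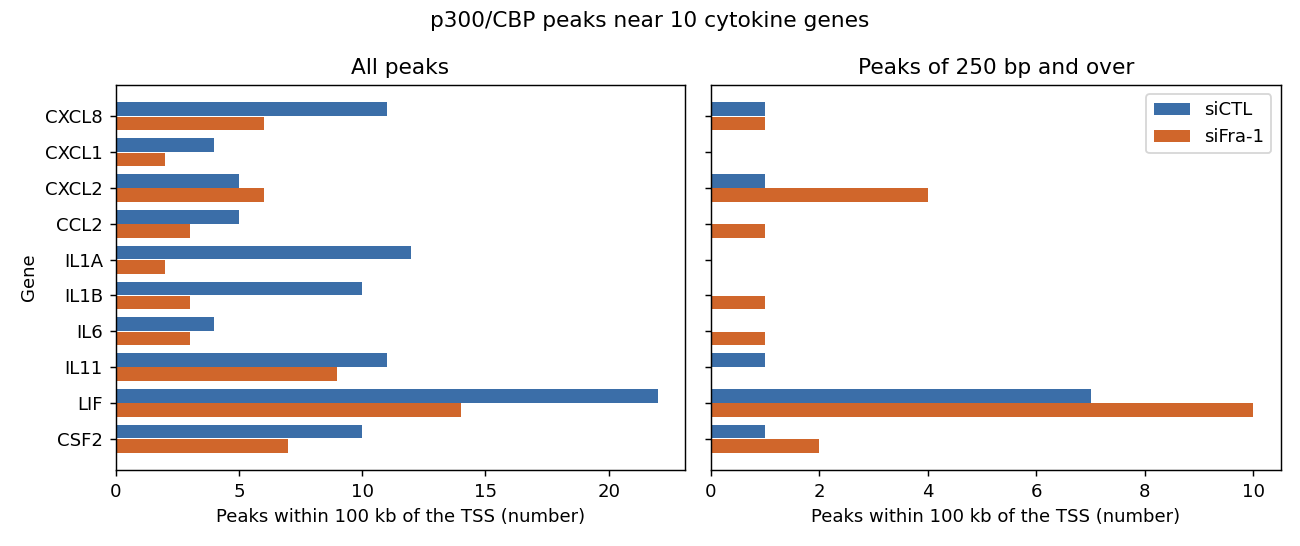
Number of peaks within 100 kb of each TSS, all widths on the left and wide peaks on the right, with 1 library per condition and so no error bar. LIF led both panels, with 22 siCTL and 14 siFra-1 peaks, of which 7 and 10 were wide.

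Sharing between conditions followed width. A siFra-1 peak overlapped 20 of the 83 siCTL peaks by at least 1 bp (24.1%, 16.2 to 34.3%), against 9.56% of the whole siCTL list. Seen from siFra-1, 20 of its 53 peaks (37.7%, 25.9 to 51.2%) had a siCTL partner, against 19.1% of the whole list. LIF carried 11 of the 20 in each list, and without its window the shares were 14.8% (7.96 to 25.7%) and 23.1% (12.6 to 38.3%), intervals that hold the values of the whole lists. All 11 wide siCTL peaks had a partner (74.1 to 100%), against 85.0% of wide peaks in the whole siCTL list. Of the 20 wide siFra-1 peaks 15 had one (75%, 53.1 to 88.8%), against 68.2%. Among 100 bp peaks, 7 of 59 in siCTL (11.9%, 5.87 to 22.5%) and 4 of 25 in siFra-1 (16%, 6.4 to 34.7%) had a partner, where the whole lists gave 3.79% and 6.56%. The siFra-1 interval holds the value of its whole list. Some of these narrow peaks lay at LIF against a wide partner, among them a pair of siCTL peaks under 1 siFra-1 peak of 750 bp.

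The overlapping peaks formed 19 sites. The siFra-1 peaks covered more bases at 13 of them, fewer at 4 and the same number at 2. The LIF window held 10 of the 19 sites and 7 of the 13 wider ones. Over all 7292 such sites of the lists, 52.3% were wider in siFra-1, 24.3% narrower and 23.4% equal. A width is set by where the signal crosses the threshold, so it is no measure of height.

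**Figure D3:**
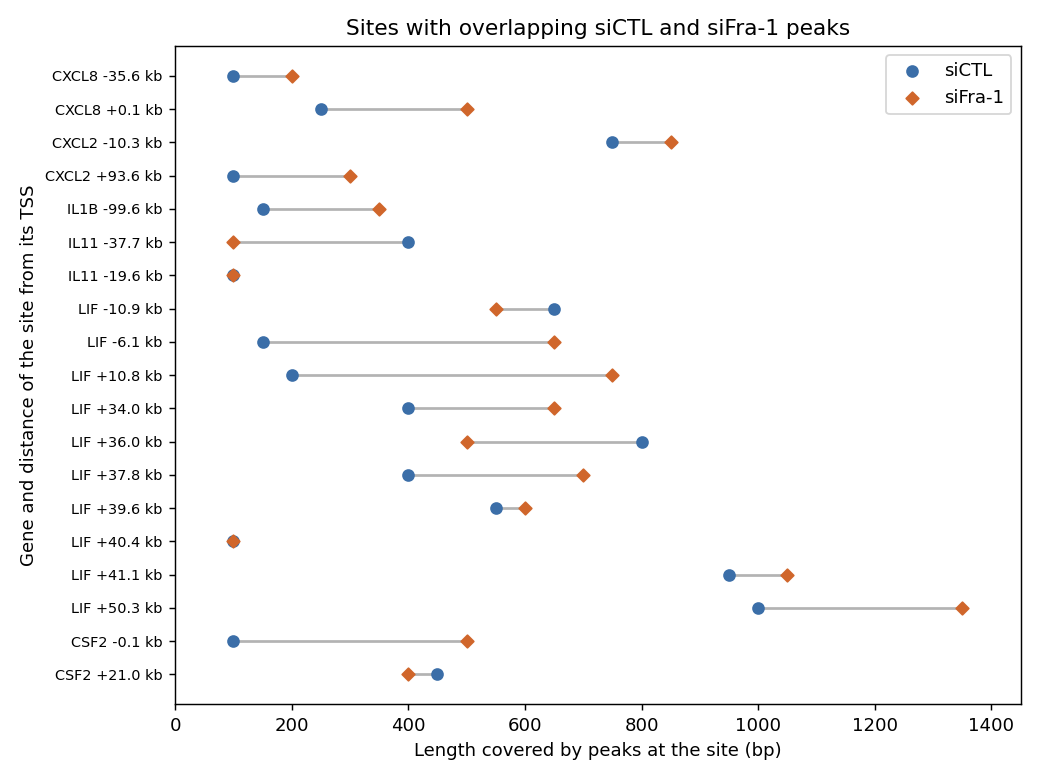
Length covered by peaks in bp at the 19 sites with overlapping peaks, for siCTL (circles) and siFra-1 (diamonds), with the gene and the distance of the site from its TSS. The siFra-1 length exceeded the siCTL length most at LIF +10.8 kb (200 to 750 bp), LIF -6.1 kb (150 to 650 bp) and the CSF2 promoter (100 to 500 bp).

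Peaks reached the promoters of 4 members, taken as the 3 kb centred on the TSS. In siCTL these were CXCL8, CXCL1 and CSF2, and in siFra-1 CXCL8, CXCL2 and CSF2, so 3 of 10 in each. Of all protein-coding genes, 16.0% had a siCTL and 9.21% a siFra-1 peak there. Wide promoter peaks were rarer. They were found at CXCL8 in siCTL and at CXCL8, CXCL2 and CSF2 in siFra-1, and 0.958% and 1.31% of protein-coding genes had one. No promoter peak was listed for CCL2, IL1A, IL1B, IL6, IL11 or LIF, which says that none passed the threshold and not that p300/CBP was absent.

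The CXC chemokines CXCL8, CXCL1 and CXCL2 attract neutrophils through CXCR1 and CXCR2, and their genes share a cluster on chromosome 4. Together their windows held 17 siCTL and 14 siFra-1 peaks, of which 2 and 5 were wide. CXCL8 (74606236 to 74609433, plus strand) encodes interleukin-8 and had 11 siCTL and 6 siFra-1 peaks. Its promoter was marked in both conditions, over 250 bp in siCTL (74606102 to 74606351) and 500 bp in siFra-1 (74606102 to 74606601). Both peaks began at the same bin, and the siFra-1 peak ran farther into the gene. The part upstream of the TSS holds 1 AP-1 motif (TGAGTCA or TGACTCA, in capitals here as in all sequences below), at -0.084 kb from the TSS. The sequence is shown because it is the one promoter with a wide peak in both conditions. This and the other sequences are the plus strand of GRCh37 (hg19).
CXCL8 promoter, chr4:74606102-74606235: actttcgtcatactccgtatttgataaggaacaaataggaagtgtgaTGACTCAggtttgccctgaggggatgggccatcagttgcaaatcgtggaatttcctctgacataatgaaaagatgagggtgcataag

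CXCL1 (74735110 to 74737025, plus strand) had 4 siCTL and 2 siFra-1 peaks, none wide and none shared. A siCTL peak of 100 bp lay in its own exon 1.24 kb downstream of the TSS. CXCL2 (74962757 to 74964913, minus strand) had 5 siCTL peaks and 6 siFra-1 peaks, and at 100 kb it was the only member with more peaks in siFra-1. This order depended on the window. At 250 kb CXCL2 had 12 siCTL and 9 siFra-1 peaks and IL6 13 and 15, and at 50 kb CCL2 had 2 and 3. Within 100 kb of CXCL2, 1 siCTL peak and 4 siFra-1 peaks were wide. The promoter had no siCTL peak, whereas siFra-1 had one of 100 bp at -0.189 kb and one of 300 bp at -0.638 kb (74965402 to 74965701), and a further one of 250 bp lay at -5.11 kb. The 100 bp promoter peak holds a C/EBP motif (TTGCNNAA, capitals), and no AP-1 motif.
CXCL2 promoter, chr4:74965052-74965151: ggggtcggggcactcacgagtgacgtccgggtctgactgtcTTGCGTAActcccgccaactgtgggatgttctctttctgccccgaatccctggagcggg

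The widest peaks of the CXC cluster lay 10.3 kb upstream of CXCL2, at 750 bp in siCTL (74974802 to 74975551) and 850 bp in siFra-1 (74974852 to 74975701). The nearest protein-coding TSS there was that of MTHFD2L, a mitochondrial folate enzyme gene, at 4.71 kb. This element holds a pair of AP-1 motifs that both conditions covered. A stretch of 105 bp around the pair had a close relative 35.9 kb upstream of CXCL8, with 91 of 105 bases identical (86.7%), on the same strand and with the motifs at the same spacing. The next best ungapped match in the windows of CXCL8, CXCL1 and CXCL2 reached 48.6%. Directly outside the stretch identity dropped to 40% and 36% in 50 bp steps. The search was made after the values were seen. At the CXCL8 copy, a siFra-1 peak of 200 bp (74570252 to 74570451) covered both motifs, and no siCTL peak did. The nearest siCTL peak, 100 bp wide, started at 74570652. It overlapped a further siFra-1 peak of 200 bp (74570502 to 74570701), so both lists had a peak next to this copy. The copies are shown together for comparison.
CXCL2 upstream element, chr4:74974882-74974986: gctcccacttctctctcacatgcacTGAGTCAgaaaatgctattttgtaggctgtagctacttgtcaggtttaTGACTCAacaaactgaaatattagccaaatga
CXCL8 upstream element, chr4:74570354-74570458: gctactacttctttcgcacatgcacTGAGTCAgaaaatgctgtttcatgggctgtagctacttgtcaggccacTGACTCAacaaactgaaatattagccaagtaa

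CCL2 (chromosome 17, 32582293 to 32584227, plus strand) encodes a chemokine that attracts monocytes through CCR2. It had 5 siCTL and 3 siFra-1 peaks, and none of these overlapped. The siCTL peaks were 100 or 200 bp wide and the nearest lay 21.6 kb from the TSS. The only wide peak, of 250 bp, was a siFra-1 peak at -2.47 kb (32579702 to 32579951).

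IL1A and IL1B encode interleukin-1 alpha and beta, which act on the same receptor, and are neighbours on chromosome 2. IL1A (113531502 to 113542070, minus strand) had 12 peaks in siCTL against 2 in siFra-1. Its ratio of 0.167 (0.0181 to 0.749) was the lowest of the 10 genes. With windows of 50 and 250 kb this ratio was 0.4 and 0.452, and from 150 bp it was 1, with 1 peak in each list. IL1B (113587328 to 113594393, minus strand) had 10 and 3, a ratio of 0.3 (0.0531 to 1.17). Many peaks lay in both windows, and counted once they were 14 in siCTL against 3 in siFra-1 (ratio 0.214, 0.0395 to 0.768). These 3 intervals hold the ratio of 0.474 over the whole lists. Of the 14 siCTL peaks 12 were 100 bp wide, and none was wide. The one shared site of the IL1 windows lay at the edge of the IL1B window, at -99.6 kb, and covered 150 bp in siCTL and 350 bp in siFra-1 (113693852 to 113694201). The siFra-1 peak covered 2 AP-1 motifs that the siCTL peak did not reach. The first 18 bases of the stretch around these motifs occur 206046 times in the genome on either strand, whereas those of the CXCL8 and CXCL2 stretches above occur 1 time each. Its multicopy sequence stands beside the peak as a measured fact, and the part it had in the call was not tested.

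IL-6, IL-11 and LIF belong to the IL-6 family and signal through gp130. IL6 (chromosome 7, 22765503 to 22771621, plus strand) had 4 siCTL and 3 siFra-1 peaks, and none overlapped. The siCTL peaks were 100 or 150 bp wide. The only wide peak, of 550 bp (22712802 to 22713351), was a siFra-1 peak in an intron of STEAP1B, 52.4 kb upstream of IL6. It was the widest peak of all 10 windows without a partner in the other condition. IL11 (chromosome 19, 55875750 to 55881831, minus strand) had 11 peaks in siCTL against 9 in siFra-1, and went the other way from the rest in width. All 9 siFra-1 peaks were 100 bp wide. Its wide siCTL peak of 400 bp at -37.7 kb (55919352 to 55919751) overlapped a siFra-1 peak of 100 bp, and the nearest protein-coding TSS there was that of UBE2S, a ubiquitin-conjugating enzyme gene, at 0.396 kb.

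LIF (chromosome 22, 30636442 to 30642748, minus strand) encodes a cytokine of inflamed tissue and tumors. It had 22 siCTL and 14 siFra-1 peaks, more than 97% and 97.6% of protein-coding genes. With 7 and 10 wide peaks, it was above 99.9% of protein-coding genes in each list. Its peaks covered 6350 bp in siCTL and 7600 bp in siFra-1. The ratio of peak numbers was 0.636 (0.301 to 1.3), so the difference in number was within counting error.

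Most of this length lay in a cluster 33 to 52 kb downstream of LIF, delimited after the values were seen, with 10 siCTL and 8 siFra-1 peaks. In each list 6 of these were wide and 7 were shared, and they covered 4500 and 5150 bp. From the far end, the site at +50.3 kb covered 1000 bp in siCTL and 1350 bp in siFra-1 (30591752 to 30593101). It was the widest site of the 10 windows in both conditions. The sites at +41.1 kb (30601152 to 30602201) and +39.6 kb (30602852 to 30603451) covered 950 and 1050 bp, and 550 and 600 bp. These lie in introns and an exon of a long noncoding RNA gene, ENSG00000225676. Nearer to LIF, the site at +37.8 kb (30604552 to 30605251) went from 400 to 700 bp and the site at +34 kb (30608402 to 30609051) from 400 to 650 bp. The site at +36 kb (30606302 to 30607101) was narrower in siFra-1, at 500 bp against 800 bp.

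Outside this cluster the widths differed more. At +10.8 kb, a pair of 100 bp siCTL peaks stood against 1 siFra-1 peak of 750 bp (30631602 to 30632351). At -6.13 kb, a 150 bp siCTL peak stood against one of 650 bp (30648552 to 30649201). A siFra-1 peak of 400 bp at -6.9 kb (30649452 to 30649851) had no partner. The site at -10.9 kb went the other way, with 650 bp in siCTL and 450 and 100 bp in siFra-1. This site lay between LIF and OSM, whose gene product oncostatin M is of the same family. The window of OSM held the same 22 siCTL and 14 siFra-1 peaks as that of LIF, so the values cannot be assigned to one gene rather than the other. GC content was high here, with a median peak at 55.5% in siCTL and 56.2% in siFra-1, against 44% and 45% over the whole lists. This was not particular to LIF, as the peaks at IL11 had 50 to 71% in siCTL and 48 to 69% in siFra-1. What part base composition had in the calls was not tested.

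**Figure D4:**
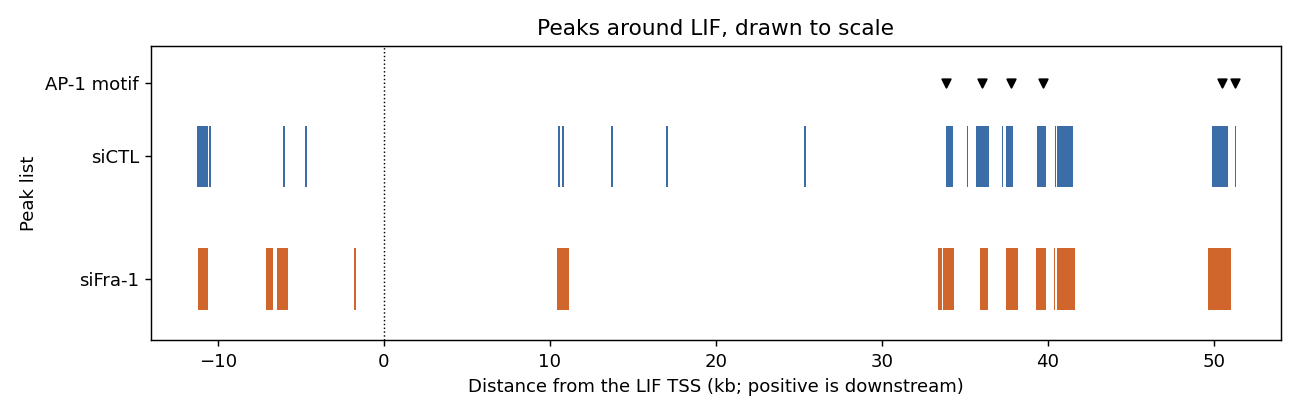
Peaks around LIF drawn to scale, by distance from the LIF TSS in kb with downstream to the right, and AP-1 motifs under a peak of either list downstream of the TSS (triangles). At +10.8 and -6.13 kb, narrow siCTL peaks face siFra-1 peaks of 750 and 650 bp.

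The LIF window also held 5 of the 9 AP-1 motifs that lay under a peak in both conditions. The 4 in the downstream cluster are shown with 20 bp on each side, since LIF had the widest peaks.
LIF +50.5 kb, chr22:30592245-30592291: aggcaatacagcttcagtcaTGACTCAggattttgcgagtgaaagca
LIF +39.7 kb, chr22:30603024-30603070: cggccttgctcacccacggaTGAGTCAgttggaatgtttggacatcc
LIF +37.7 kb, chr22:30604986-30605032: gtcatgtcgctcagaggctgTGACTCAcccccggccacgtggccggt
LIF +36 kb, chr22:30606685-30606731: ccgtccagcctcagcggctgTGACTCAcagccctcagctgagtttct

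CSF2 (chromosome 5, 131409482 to 131411863, plus strand) encodes the growth factor GM-CSF, which drives granulocytes and macrophages. It had 10 siCTL and 7 siFra-1 peaks. The promoter site covered 100 bp in siCTL (131409602 to 131409701), within the gene, and 500 bp in siFra-1 (131409152 to 131409651), across the TSS. A siFra-1 peak of 150 bp lay in an intron at +1.54 kb, without a siCTL partner. At +21 kb the order was opposite, with 450 bp in siCTL (131430302 to 131430751) and 400 bp in siFra-1. That element holds 1 AP-1 motif and 1 match to the NF-kB consensus, both in capitals, in a stretch covered in both conditions.
CSF2 downstream element, chr5:131430432-131430576: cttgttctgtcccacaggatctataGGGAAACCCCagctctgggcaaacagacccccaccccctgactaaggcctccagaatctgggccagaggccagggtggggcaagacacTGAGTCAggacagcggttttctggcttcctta

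AP-1 motifs were counted on both strands in the central 200 bp of each peak, since Fra-1 binds them. In siCTL 12 of the 83 peaks held one (14.5%, 8.47 to 23.6%), against 6.15% of the whole list and 3.61% of windows moved by 2 kb to each side. In siFra-1 it was 5 of 53 (9.43%, 4.1 to 20.3%), against 9.08% of the whole list and 3.77% of moved windows. Without the LIF window the siCTL share was 11.5% (5.67 to 21.8%), an interval that holds the value of the whole list. Among the other motifs, C/EBP was found in 9.64% of siCTL and 13.2% of siFra-1 peaks, against 10.1% and 11.1%. TEAD (GGAATGT) was found in 4.82% and 5.66%, RUNX (TGTGGTT) in 7.23% and 5.66%, and the NF-kB consensus in 1.2% and 3.77%. Their intervals hold the values of the whole lists. A match is a sequence feature and no evidence of binding.

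The place of the motif within wide peaks was counted as well. An AP-1 motif lay anywhere in 8 of the 11 wide siCTL and in 10 of the 20 wide siFra-1 peaks. It lay in the central 200 bp in 6 of those 8, and in 2 of those 10 (20%, 5.67 to 51%). Over the whole lists the shares were 76.8% and 70.4%. The difference came from LIF, with 4 of 5 in siCTL and 0 of 6 in siFra-1. Without its window the counts were 2 of 3 and 2 of 4 (50%). The count of 0 at LIF rests in part on the edge of the central 200 bp. The siFra-1 motifs at +39.7, +36 and +37.7 kb lay just outside it, at 104, 106 and 108 bp from the centre. Each of the 9 motifs under a peak in both conditions was nearer to the centre of the siCTL peak, 5 of them at LIF. Of all 1989 such motifs in the lists, 44.8% were. The rest can include motifs at equal distance from both centres, which were not counted apart. The pair of motifs upstream of CXCL2 lay in the same peaks, so the 9 are not separate cases. The siFra-1 peak was the wider one at 6 of the 9 and the narrower one at 3. At the CXCL8 promoter the motif lay 74.5 bp from the centre in siCTL and 200 bp in siFra-1. At LIF +36 kb it lay 6.5 bp from the centre of the 800 bp siCTL peak and 106 bp from that of the 500 bp siFra-1 peak. The measure was chosen after the values were seen.

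**Figure D5:**
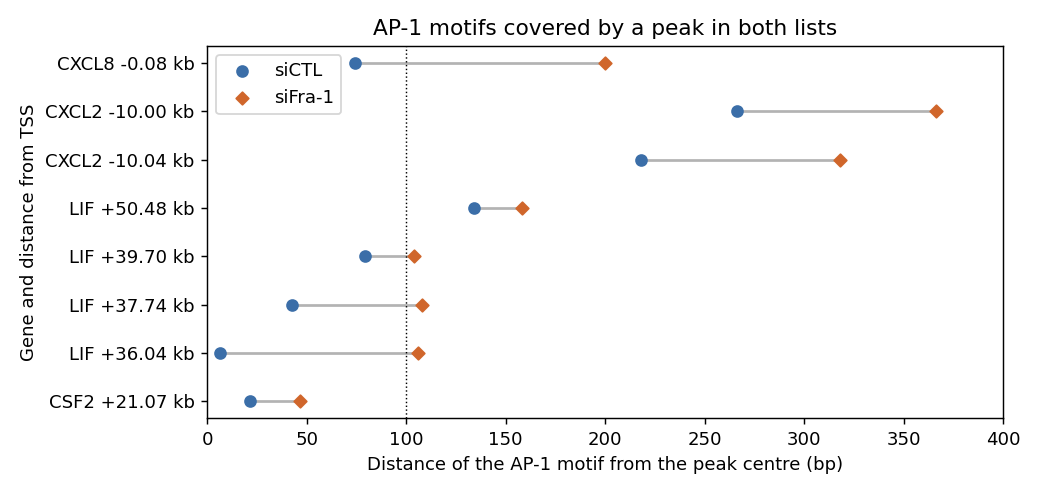
Distance in bp from the peak centre to 8 of the 9 AP-1 motifs that lay under a peak in both conditions, for siCTL (circles) and siFra-1 (diamonds). The dotted line is the edge of the central 200 bp. The siFra-1 point lies to the right at each motif.

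Of the 21 AP-1 motifs under any of the 136 peaks, 6 lay under siCTL peaks alone and 6 under siFra-1 peaks alone. Of all 6264 AP-1 motifs under a peak of either list, 38.6% lay under siCTL peaks alone and 29.6% under siFra-1 peaks alone, so the counts stand near this background. Those under siCTL alone were 2 in the IL1 windows, 1 each at IL6 and IL11, and 2 at LIF. Those under siFra-1 alone were the pair upstream of CXCL8, the pair upstream of IL1B, 1 at LIF and 1 at CSF2.

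By annotation at the peak centre, with promoters not counted apart, of the 83 siCTL peak centres, 56 (67.5%) were intergenic, 17 intronic and 10 exonic. Of the 53 in siFra-1, 33 (62.3%) were intergenic, 12 intronic and 8 exonic. A member gene had the nearest protein-coding TSS for 48 of the 83 siCTL and 32 of the 53 siFra-1 peaks, and for the rest another gene was nearer.

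Further genes of these pathways were counted the same way. Among 20 other cytokines and chemokines, the siFra-1 number was at most 0.5 of the siCTL number at 11 and at least 2 times it at 0. Wide peaks were more numerous in siFra-1 at 9 and fewer at 0. Of all protein-coding genes, with or without a wide peak, 15.7% and 7.29% were so. Of the 9, CXCL3, CXCL5, CCL7, CCL8 and OSM had windows that overlapped a member's and in part count the same peaks. CSF1, the macrophage growth factor, had 50 siCTL and 32 siFra-1 peaks, and OSM the same peaks as LIF. Among 11 receptors of these ligands, 5 were lower and 0 higher by the same rule, and wide peaks were more numerous in siFra-1 at 3 and fewer at 0. CCR2, the receptor of CCL2, had 18 siCTL and 22 siFra-1 peaks. OSMR, the oncostatin M receptor, had 18 and 8, and IL1RAP, the accessory chain of the IL-1 receptor, 13 and 9. These shares of lower genes stand against the 65.5% of protein-coding genes.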

How the data were processed

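The deposited files gave peak positions in bp on hg19, with no height, score or read count (unit: other). Per the study's methods, the authors pooled replicate immunoprecipitations before library preparation, aligned reads with BWA (the submitters' processing notes name Bowtie2), processed them with PASHA and called peaks in the Integrated Genome Browser (threshold 25, maximal gap 50 bp, minimal run 50 bp). The names of the deposited files add 50 bp bins, scaling and background subtraction. One setting named there, an artifact threshold, differed between the libraries, and what this did to the peak calls was not tested. Depth was not given in the sources used here. Starts were read as counted from 0, which leaves printed starts uncertain by 1 bp.

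Gene positions came from GENCODE release 44 lifted to GRCh37 (20136 protein-coding genes), the TSS being the 5′ end of the gene, and sequences from GRCh37. Peaks were counted, overlapped (at least 1 bp) and searched for 5 motifs with Python 3.11.15, numpy 2.4.6 and pandas 2.3.3, tested on simulated data. Intervals were Wilson for shares and exact Clopper-Pearson for ratios. Genes and lists were chosen with earlier results of these data known. All 10 genes were named. Peaks named by rule were the 25 widest (400 bp and over), and narrower ones were picked after their values were seen. From each further list, the 2 genes with the most peaks in siCTL and the 2 with the most in siFra-1 were named, ties included, besides 5 genes whose windows overlapped a member's. The sequence and motif distance of 1 AP-1 motif are not reported here. Alternatives changed the window, minimal width, overlap, merging, motif span and the LIF window.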

Additional observations from a re-analysis of the deposited data

How the results depend on the processing

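The siFra-1 to siCTL ratio of peak numbers turned over when narrow peaks were left out, to 1.17 (0.652 to 2.1) from 150 bp and 1.82 from 250 bp. With windows of 50 and 250 kb it was 0.8 (0.526 to 1.21) and 0.586 (0.452 to 0.755). With peaks within 500 bp merged it was 0.587 (0.395 to 0.862). The interval at 50 kb holds 1, unlike that of the main value. The overlapped share of siCTL peaks moved to 50% from 150 bp and to 90.9% from 250 bp (both lists limited to that width). It moved to 14.5% when the overlap had to cover 50% of both peaks, and to 14.8% without the LIF window. That of siFra-1 peaks moved to 22.6% under 50% coverage of both peaks and 23.1% without LIF. The alternative without LIF was chosen after seeing the data. The AP-1 share of siCTL peaks was 54.5% from 250 bp (28 to 78.7%), an interval that holds the 31.9% of the whole list. That of siFra-1 peaks was 22.6% over the whole peak (whole list 8.43%) and 24.5% in 400 bp (14.7%). It stood above the whole list there and not in the central 200 bp. Without the LIF window the siFra-1 share over the whole peak was 15.4%. Mean width was 288 bp for the siFra-1 peaks of the windows and 160 bp in the whole list, so whole peaks gave more bases to search. With wide peaks alone, 1 gene was called lower. These shifts follow in part from the construction, since fewer peaks or more bases enter, and further causes were not tested. Among the other 30 of 42 recomputed values, ratios and shares stayed within the interval of the main value. The number of lower genes has no interval, and there it stayed at 3 or went to 2. Of 34 gene ratios recomputed, 6 left the interval of the main value. At 8, from 6 genes (CXCL8, CXCL2, CCL2, IL6, LIF and CSF2), the ratio lay on the other side of 1, all from genes whose main interval holds 1. No paired analysis was possible because each condition had 1 library. Depth and peak heights were not known, which limits all counts of narrow peaks.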

Other observations

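The regulators of these genes were counted in the same way. Among 9 NF-kB and C/EBP factors and NF-kB inhibitors, the siFra-1 number was at most 0.5 of the siCTL number at 5 and at least 2 times it at 0, and wide peaks were more numerous in siFra-1 at 4 and fewer at 2. Of protein-coding genes with a siCTL peak, 65.5% were lower and 2.45% higher by this rule. Of all protein-coding genes, with or without a wide peak, wide peaks were more numerous at 15.7% and fewer at 7.29%. CEBPB, a C/EBP factor induced by interleukins, had 30 siCTL and 13 siFra-1 peaks, of which 1 and 2 were wide. NFKB2, an NF-kB subunit gene, had 17 and 7, of which 1 and 0 were wide. NFKBIA, the inhibitor that holds NF-kB in the cytoplasm, had 17 and 9, and all 3 of its wide peaks were in siFra-1.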
